A study of Mus musculus with 8 samples.

Results

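In whole retina of *Mettl3*-CKO mouse pups, 62 protein-coding genes that were nearly silent in controls were higher in every mutant sample. They were selected on this contrast itself: of 54532 genes in the count table, 22046 are protein-coding, 8410 of these had a mean below 1 CPM (count divided by the sample's total, times 1000000) in controls, 706 of these reached a mean of at least 0.5 CPM in the mutant, 89 of these were at least 2 times higher by the ratio of means, and in 62 the lowest mutant sample lay above the highest control. Because these values chose the genes, the levels and ratios of the 62 genes are given as a description, without a test. In all 18293 protein-coding genes with a count, every mutant value lay above every control value for 9.56%, and for 10.9% of the 706 low genes. The same selection with the groups exchanged found 71 genes that were low in the mutant and higher in every control, with a median ratio of 2.81 and a highest ratio of 10.1. These included 5 endothelial genes (*Aplnr*, *Emcn*, *Erg*, *Tie1* and *Vwf*) and the globin genes *Hba-a2* and *Hbb-bt*.

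The study compared 4 control and 4 *Mettl3*-CKO retinal samples by bulk RNA-seq. *Mettl3*-CKO mice are *Six3-Cre*+ and *Mettl3* floxed/floxed, so that the deletion is made in retinal progenitor cells from the embryo on, and loss of the METTL3 protein is described for the central retina. The methods speak of control and CKO pups without giving the genotype of each control pup. The sample labels give the age as postnatal day 7 for all 8 samples, while the methods state day 6, and no treatment was given. The samples are whole retina, so a change in the number of cells of a type and a change in RNA per cell cannot be told apart.

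METTL3 is the catalytic subunit of the complex that writes N6-methyladenosine (m6A) on messenger RNA, a mark bound by reader proteins that affect splicing, translation and decay of the transcript. Genes that a tissue hardly transcribes are often held down by DNA methylation, by repressive histone marks or by the lack of an activating factor. The largest recognisable family among the 62 genes is that of the C2H2 zinc fingers. Many of these proteins pair DNA-binding fingers with a KRAB domain that recruits a co-repressor, and they often stand in tandem clusters of close copies.

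The promoters of 4 genes are shown because these genes carry the findings that follow: *Zfp819* and *Klhdc7a* have the highest mutant levels, and *Zfp981* and *Zfp988* are 2 members of one zinc finger cluster. Each runs from 250 bases before to 50 bases after the RefSeq start (GRCm38.p6), and is written 5′ to 3′ on the strand of the gene. *Zfp819* is at chr7:43606919-43607218 (plus strand), *Klhdc7a* at chr4:139967977-139968276 (minus strand), *Zfp981* at chr4:146514670-146514969 (plus strand) and *Zfp988* at chr4:147305354-147305653 (plus strand). As counted, *Zfp981* starts at 146502027, so its printed promoter lies inside the gene. *Zfp988* starts at 147305674, just past its printed promoter. Capitals mark the sequence CACGTG in *Zfp819*, a p53 half-site in *Klhdc7a*, and in the other two the runs of at least 10 identical bases that both share.
Zfp819: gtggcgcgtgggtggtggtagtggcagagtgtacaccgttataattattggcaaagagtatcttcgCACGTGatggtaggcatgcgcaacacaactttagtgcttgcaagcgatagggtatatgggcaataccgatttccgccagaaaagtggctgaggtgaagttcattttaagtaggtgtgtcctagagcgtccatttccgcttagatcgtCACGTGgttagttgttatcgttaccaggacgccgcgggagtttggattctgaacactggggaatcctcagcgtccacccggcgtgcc
Klhdc7a: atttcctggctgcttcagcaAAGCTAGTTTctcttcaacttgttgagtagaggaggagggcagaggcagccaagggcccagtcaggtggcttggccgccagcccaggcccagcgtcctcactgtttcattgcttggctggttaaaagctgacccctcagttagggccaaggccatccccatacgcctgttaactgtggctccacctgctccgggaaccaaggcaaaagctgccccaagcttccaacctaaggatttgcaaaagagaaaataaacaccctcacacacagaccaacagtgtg
Zfp981: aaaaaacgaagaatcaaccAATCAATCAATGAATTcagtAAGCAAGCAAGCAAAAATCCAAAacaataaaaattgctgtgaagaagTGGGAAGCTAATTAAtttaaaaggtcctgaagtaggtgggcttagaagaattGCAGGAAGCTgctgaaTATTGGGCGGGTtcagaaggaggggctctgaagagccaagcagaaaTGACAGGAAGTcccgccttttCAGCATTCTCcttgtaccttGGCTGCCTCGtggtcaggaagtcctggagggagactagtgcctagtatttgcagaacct
Zfp988: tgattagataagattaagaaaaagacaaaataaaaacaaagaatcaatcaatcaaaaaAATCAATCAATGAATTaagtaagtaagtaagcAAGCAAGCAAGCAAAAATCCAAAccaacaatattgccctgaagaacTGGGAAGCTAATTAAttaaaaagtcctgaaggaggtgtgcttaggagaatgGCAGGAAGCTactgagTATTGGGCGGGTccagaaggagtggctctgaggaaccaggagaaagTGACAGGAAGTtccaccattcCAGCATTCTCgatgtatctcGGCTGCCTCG

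A promoter without unknown bases was found for 45 of the 62 genes. CACGTG occurred in 6 of them (13.3%), against 9.20% of all 16492 protein-coding genes with a promoter and 7.79% of the other low genes at 0.5 CPM or more in the mutant. The *Zfp819* promoter held it 2 times, as did the promoters of 147 of the 16492 genes (0.891%) with at least 2. The p53 half-site was found in 5 (11.1%) against 8.45% of all genes, TATAAA in 6 (13.3%) against 14.3%, CCAAT in 20 (44.4%) against 42.1% and GGCGGGA in 4 (8.89%) against 17.3%. In the other low genes at 0.5 CPM or more in the mutant these shares were, in this order, 9.89%, 14.5%, 34.7% and 12.2%. In all other low genes they were 8.65%, 25.3%, 40.8% and 4.99%, with CACGTG at 5.06%. All motifs were searched on both strands, and a match is only a run of letters. The observed over expected ratio of CpG had a median of 0.323 in the 45 promoters, against 0.584 in all genes, 0.373 in the other low genes at 0.5 CPM or more in the mutant and 0.193 in all other low genes. The median of the selected genes was thus below that of all genes, and *Zfp819* was an exception at 1.05. In the transcripts, GGACT, the commonest form of the m6A sequence motif, occurred 0.953 times per kb (median over the 62 genes) against 1.01 in all protein-coding genes, so that the letters of this motif were about as frequent as elsewhere.

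The word silent applies to few of the 62 genes. Only 5 had at most 3 counts in every control, 27 had at least 4 counts in every control, and 13 had a control without any count. The median control mean was 0.366 CPM (0.0152 to 0.991) and the median mutant mean 1.13 CPM (0.514 to 6.16). The ratio of the means had a median of 3.33 and ran from 2.01 to 52.6, with 7 genes at 10 or more, 8 between 5 and 10, 22 between 3 and 5 and 25 below 3. Even in the mutant the levels stayed low. Per length of transcript, the mutant means lay between 0.0853 and 2.42 FPKM with a median of 0.550 FPKM, against a median of 4.07 FPKM over all protein-coding genes with a count. Sample totals lay between 16227095 and 20281517 counts, so that 3 counts correspond to 0.148 to 0.185 CPM. In 15 of the genes at least one mutant sample had under 10 counts, and counting error is then large.

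**Figure D1:**
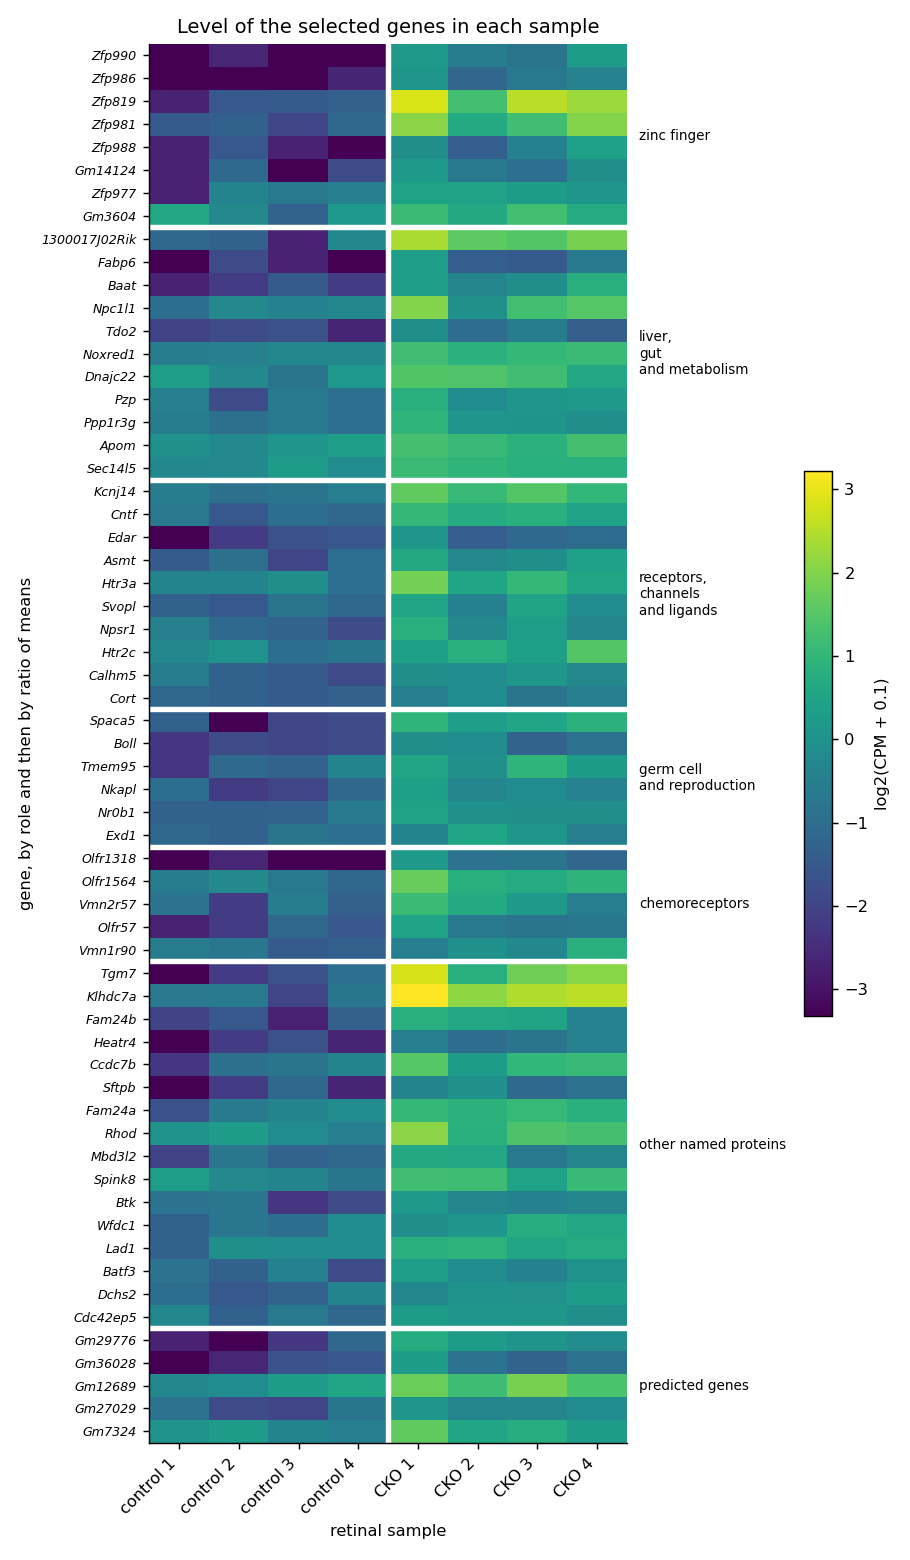
Level of 61 of the 62 genes as log2(CPM + 0.1) in the 4 control (left) and 4 *Mettl3*-CKO samples (right), grouped by role and ordered by the ratio of means within a role. The mutant columns are lighter throughout, as the selection requires, and CKO replicate 1 holds the highest mutant value of 43 genes.

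In mutant replicates 1 to 4 the 62 genes summed to 125, 73.9, 86.1 and 89.9 CPM, and in the 4 controls, in the same order, to 23.5, 24.2, 23.2 and 26.5 CPM. The controls were thus close to each other, while the mutant samples spread widely, with replicate 1 far above the others. Replicate 1 held the highest mutant value for 43 of the 62 genes (69.4%), against 33.9% of the 644 other low genes at 0.5 CPM or more in the mutant. Replicate 2 held the lowest value for 22 genes (35.5%), against 30.7% of those other low genes. Replicates 3 and 4 held it for 18 and 19 genes. *Mettl3* itself was at 21.3, 29.6, 21.1 and 24.5 CPM in the mutant and at 32.7, 32.7, 29.3 and 29.5 CPM in the controls, and its log2 fold change was -0.38 with a standard error of 0.12 (edgeR's quasi-likelihood test, adjusted p = 0.0602). Replicate 2, with the highest *Mettl3* level of the mutants, lies within the range of the controls and had the lowest sum of the 62 genes. Replicates 1 and 3 had nearly the same *Mettl3* level and sums of 125 and 86.1 CPM. Whether the sum goes with the *Mettl3* level was not tested. The *Mettl3* value is a count over the gene as a whole, and the extent of deletion in each sample is not given.

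**Figure D2:**
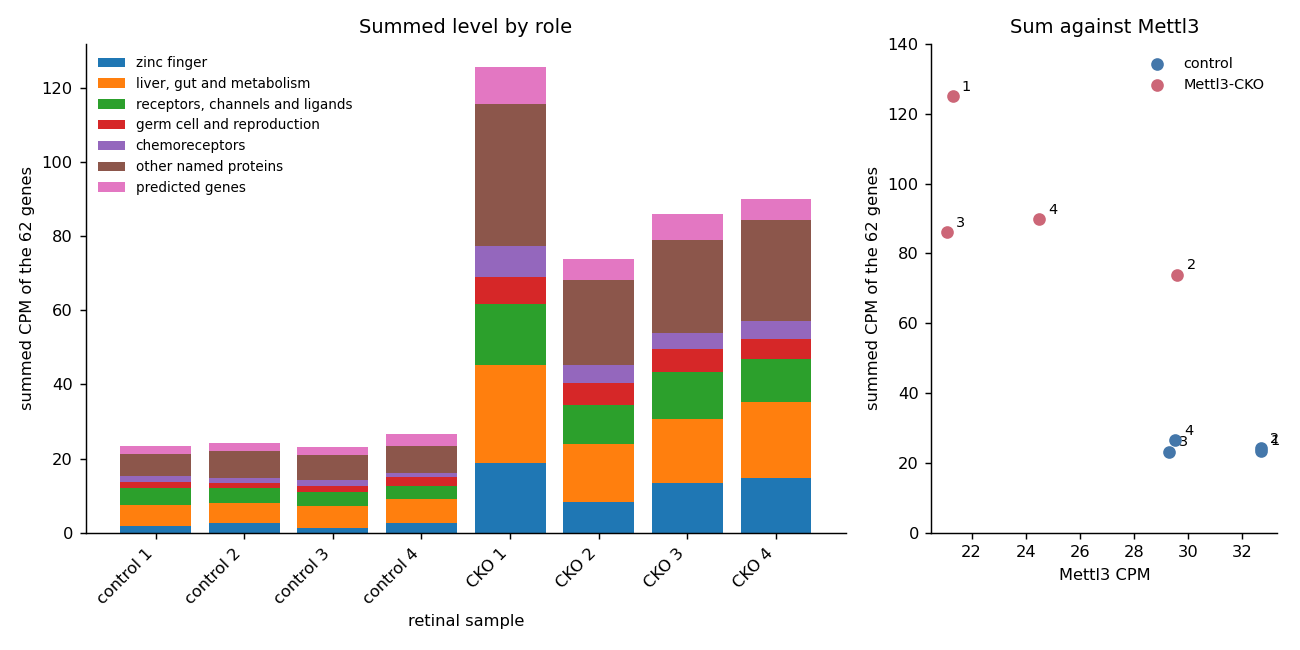
Left, summed CPM of the 62 genes in each retinal sample, stacked by role. Right, the same sums against the CPM of *Mettl3* (numbers are replicates), where the 4 mutant samples lie between 73.9 and 125 CPM and the controls between 23.2 and 26.5 CPM.

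To look at samples that had no part in the choice, the selection was repeated without each sample in turn, and the position of that sample was then read. Without *Mettl3*-CKO replicate 1, 57 genes were chosen, and the replicate lay above all 4 controls in 55 of them (96.5%), against 34.6% of the low genes chosen on level alone. For the other mutant samples this was so in 66 of 84 genes (78.6%) for replicate 2, 64 of 71 (90.1%) for replicate 3 and 63 of 74 (85.1%) for replicate 4, against 27.3%, 30.3% and 30.0%. A left-out control lay below all 4 mutant samples in 66 of 87 genes (75.9%) for replicate 1, 66 of 78 (84.6%) for replicate 2, 63 of 73 (86.3%) for replicate 3 and 69 of 85 (81.2%) for replicate 4, against 34.4%, 33.0%, 36.0% and 30.9%. Each sample therefore took its group's side in most of the genes that the other 7 samples chose. The samples it was set against had entered that choice, which favours such a placement. The genes chosen on level alone did not have to pass the ratio and separation conditions, so their shares are no matched comparison. Between 53 and 61 of the 62 genes were chosen again when one sample was left out.

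The zinc finger genes had the highest median ratio of any role, 9.67 over 8 genes, a ranking on values that the selection itself used. The 4 genes of one cluster on chromosome 4 had ratios of 52.6, 41.4, 10.8 and 8.52, the first 2 with a single control count each. The ratios of the others were 23.0, 4.70, 2.50 and 2.11, so the high median rests largely on that cluster. *Zfp819*, on chromosome 7 from 43607169 to 43618285 (GRCm38, plus strand), codes for a KRAB zinc finger protein. It was at 7.13, 2.31, 5.79 and 4.63 CPM in the mutant (replicates 1 to 4, as in all such series) and at 0.0518, 0.247, 0.262 and 0.304 CPM in the controls. The means were 4.97 ± 2.04 and 0.216 ± 0.112 CPM (SD, n = 4 each), a ratio of 23.0, and even the lowest mutant sample was far above the highest control. It is also the zinc finger gene with the highest level per length in the mutant, 2.01 FPKM against 0.0876 FPKM in controls. *Zfp977*, 1014.6 kb away on the same chromosome, was at 0.986 to 1.28 CPM in the mutant and at 0.0518 to 0.678 CPM in controls, a ratio of 2.5, and without control replicate 1, its lowest sample, the ratio was 1.93. *Gm3604* on chromosome 13 had a ratio of 2.11, from 0.871 to 1.84 CPM, and *Gm14124* on chromosome 2 one of 4.70, from 0.151 to 0.709 CPM.

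The other 4 zinc finger genes, *Zfp990*, *Zfp986*, *Zfp981* and *Zfp988*, lie on the plus strand of chromosome 4 within 1.82 Mb, between 145510759 and 147333734. *Zfp981* was at 4.18, 1.5, 2.21 and 3.90 CPM in the mutant and at 0.259, 0.308, 0.157 and 0.365 CPM in controls, a ratio of 10.8. *Zfp990* had 19, 10, 9 and 23 counts in the mutant and 0, 1, 0 and 0 counts in controls. *Zfp986* had 18, 6, 10 and 13 counts against 0, 0, 0 and 1. With a single control count, the ratios pooled over samples were 58.2 for *Zfp990* (95% counting interval 10.1 to 2336) and 44.8 for *Zfp986* (7.66 to 1808), so that their size is poorly determined although the groups are well apart. *Zfp988* was at 0.835, 0.289, 0.632 and 1.23 CPM in the mutant and at 0.0518, 0.247, 0.0523 and 0 CPM in controls, and its lowest mutant sample is just above its highest control. Mutant replicate 4 held the highest value in *Zfp990* and *Zfp988*, and replicates 1 and 4 were the 2 highest in all 4 genes.

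**Figure D3:**
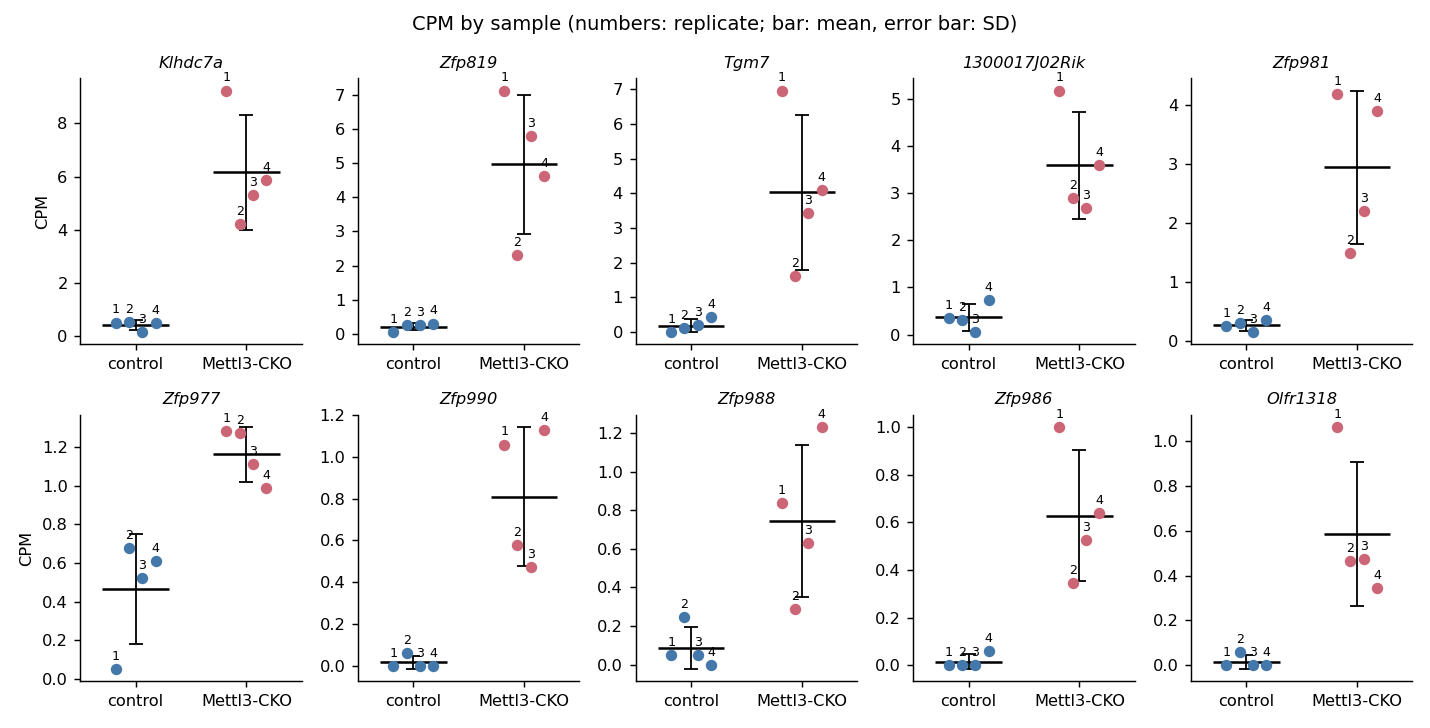
CPM in each sample for 10 genes that lead by level or ratio or belong to the zinc fingers, with the replicate number at each point, the mean as a bar and the SD (n = 4) as an error bar. No mutant point overlaps the controls, and mutant replicate 2 is lowest in *Klhdc7a*, *Zfp819*, *Tgm7*, *Zfp981*, *Zfp988* and *Zfp986*.

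The zinc finger cluster, looked at as a whole after these values had been seen, holds 13 zinc finger genes annotated as protein-coding, of which 3 had no count. Beside the 4 genes of the selection, *Zfp992* was too high in controls to be chosen. It rose from 4.68 ± 1.03 to 10.7 ± 1.74 CPM (SD, n = 4 each), by 1.18 on the log2 scale with a standard error of 0.19 (edgeR, adjusted p = 0.00239). *Zfp991* was at 7.60 and 9.5 CPM and *Zfp993* at 1.57 and 2.11 CPM in control and mutant, with overlapping groups, while *Gm13212*, *Zfp987* and *Zfp600* had means of at most 0.137 CPM in both groups. Not every gene of the cluster therefore parted the groups. Of 18 pseudogenes in it with at least 8 counts, 7 had every mutant value above every control, against 3.73% of all 2735 pseudogenes with at least 8 counts, among them *Gm13147* (0.116 to 1.45 CPM) and *Gm13238* (0.555 to 2.49 CPM). Close copies can share reads here: of all stretches of 50 bases in its transcript, *Zfp986* shared 86.9% with transcripts of other genes, *Zfp988* 72.7%, *Zfp981* 38.7% and *Zfp990* 27.0%, whereas *Zfp819* shared 0.562%. The promoters of *Zfp981* and *Zfp988* printed above were identical in 218 of 272 aligned positions (80.1%), but that of *Zfp981* was as close to those of *Gm13212* (84.5%), *Zfp987* (83.0%) and *Zfp600* (82.9%), which stayed near 0.

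**Figure D4:**
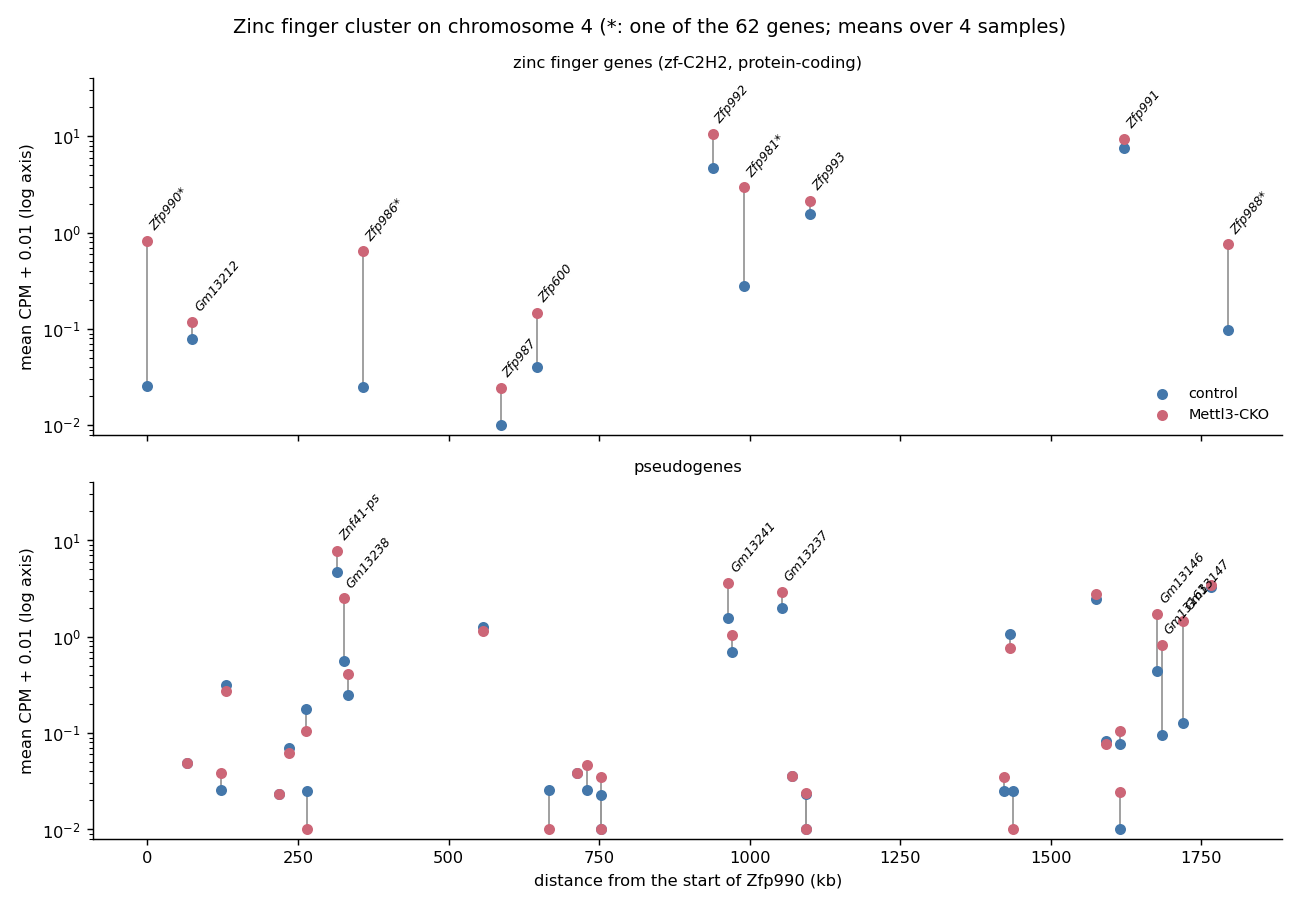
Mean CPM + 0.01 (log axis) of zinc finger genes (top) and pseudogenes (bottom) in control and *Mettl3*-CKO samples against the distance from the start of *Zfp990* in kb. Asterisks mark genes of the selection, and named pseudogenes are the 7 whose groups do not overlap. In the top panel *Zfp990*, *Zfp986*, *Zfp981* and *Zfp988* have the longest lines, while *Zfp991* and *Zfp993* between them hardly move.

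In the annotation's zinc finger (zf-C2H2) class, 8 of 121 low genes were selected (6.61%), against 0.737% of all 8410 low protein-coding genes. Among genes that reached 0.5 CPM in the mutant these shares were 8 of 27 (29.6%) and 8.78%. That floor is itself a condition of the selection on the mutant level, so these shares are a description only. Of the 8 genes, 4 lie in the chromosome 4 cluster, where close copies can share reads, so they are not separate cases. Outside the cluster reads can be shared too. There, *Gm14124* shared 28.3% of its 50-base stretches with other genes, *Gm3604* 12.6%, *Zfp977* 8.87% and *Zfp819* 0.562%. The 71 genes of the exchanged selection held 2 zinc finger genes, *Klf5* and *Mecom*.

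*Klhdc7a*, on chromosome 4 from 139960220 to 139968026 (minus strand), encodes a protein with kelch repeats and reached the highest level by CPM. It was at 9.24, 4.22, 5.32 and 5.87 CPM in the mutant and at 0.518, 0.555, 0.157 and 0.487 CPM in controls. The means were 6.16 ± 2.16 and 0.429 ± 0.183 CPM (SD, n = 4 each), a ratio of 14.4. Its transcript is long, and per length it stood at only 0.789 FPKM, below *Zfp819*. *Tgm7*, a transglutaminase gene on chromosome 2, was at 6.96, 1.62, 3.42 and 4.09 CPM in the mutant and at 0, 0.123, 0.209 and 0.426 CPM in controls, a ratio of 21.2. Other genes of this mixed group were lower: *Rhod*, a small GTPase, had means of 2.69 and 0.859 CPM in mutant and control, *Ccdc7b*, a coiled-coil protein, 1.95 and 0.419 CPM, and *Heatr4*, near the floor of the selection, 0.533 and 0.0984 CPM. *Fam24a* and *Fam24b*, 4.3 kb apart on chromosome 7, were both selected with ratios of 3.30 and 6.54. *Wfdc1*, a secreted protein with a protease inhibitor domain, was at 0.835 to 1.58 CPM in the mutant and 0.311 to 0.791 CPM in controls. The 16 genes of the group had a median ratio of 3.09.

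Genes best known from liver, gut and metabolism made up 12 of the 62, with a median ratio of 3.25. *1300017J02Rik*, which codes for a transferrin-like inhibitor of carbonic anhydrase, led them with 5.18, 2.89, 2.69 and 3.60 CPM in the mutant and 0.362, 0.308, 0.0523 and 0.730 CPM in controls, a ratio of 9.88. *Npc1l1*, the intestinal cholesterol transporter, was at 3.90, 0.868, 2.26 and 2.71 CPM against 0.414 to 0.740 CPM, so that mutant replicate 2 came close to the controls. *Baat*, which joins bile acids to amino acids, was at 1.17, 0.694, 0.843 and 1.63 CPM in the mutant, highest in replicate 4, against at most 0.262 CPM in controls. *Fabp6*, the ileal bile acid binding protein, had a ratio of 9.54 that rests on few counts. Of the 4 genes *Apom* (apolipoprotein M), *Dnajc22* (a J-domain protein), *Noxred1* (an oxidoreductase-like protein) and *Sec14l5* (a lipid transfer protein family member), none had a ratio above 3.03. *Tdo2*, which opens the breakdown of tryptophan, was among the lowest at 0.529 CPM in the mutant.

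Receptors, channels, ligands and related neural genes numbered 10, with a median ratio of 3.02. *Kcnj14*, an inward rectifier potassium channel, was at 3.01, 2.02, 2.69 and 1.92 CPM in the mutant and at 0.570, 0.431, 0.471 and 0.608 CPM in controls, with all 4 mutant values well above the controls. Of the stretches of 50 bases in its transcript, 31.2% also occur in that of *Gm5522*. The serotonin receptors *Htr3a*, an ion channel, and *Htr2c*, coupled to G proteins, had ratios of 3.11 and 2.63. Their mutant patterns differed, since *Htr3a* was highest in replicate 1 (3.51 CPM) and *Htr2c* in replicate 4 (2.66 CPM). *Edar*, the ectodysplasin receptor, had the lowest mutant mean of all, 0.514 CPM, and *Cort*, the neuropeptide cortistatin, the lowest ratio, 2.01. *Cntf*, ciliary neurotrophic factor, had a ratio of 4.18, but 78.0% of the stretches of 50 bases in its transcript also occur in another gene's, and it lies within *Zfp91*, which was at 324 CPM in controls and 312 CPM in the mutant.

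Germ cell and reproductive genes numbered 6, with ratios from 2.29 to 9.37. *Spaca5*, a lysozyme-like protein of the sperm acrosome on the X chromosome, was at 1.84, 1.16, 1.37 and 1.73 CPM in the mutant and at 0.311, 0, 0.157 and 0.182 CPM in controls. *Boll*, an RNA-binding protein of the DAZ family needed in spermatogenesis, rests on fewer reads, with 0.316 to 0.835 CPM against 0.104 to 0.185 CPM. The olfactory and vomeronasal receptor genes *Olfr1564*, *Olfr57*, *Olfr1318*, *Vmn2r57* and *Vmn1r90* had ratios from 2.39 to 38.0. In this order they shared 11.3%, 5.76%, 16.3%, 42.9% and 22.6% of their 50-base stretches with other genes. *Vmn1r90* (0.407 and 0.973 CPM in control and mutant) also overlaps the pseudogene *Nlrp5-ps* on the same strand, which was at 1.93 and 2.75 CPM. *Olfr1318* had 1 count over the 4 controls, and its pooled ratio of 41.0 has a 95% counting interval of 6.98 to 1657. These 3 odorant receptors were 0.265% of the 1132 low *Olfr* genes and the 2 vomeronasal receptors 0.610% of the 328 low *Vmn* genes, below or near the 0.737% of all low protein-coding genes. Few low receptor genes reached 0.5 CPM in the mutant, and of those that did, 3 of 5 *Olfr* genes and 2 of 4 *Vmn* genes were chosen, against 8.78% of all 706. That floor is itself a condition of the selection on the mutant level, so the shares of these few genes are a description only. The predicted genes *Gm12689*, *Gm7324*, *Gm29776*, *Gm27029* and *Gm36028* had ratios from 2.12 to 8.43, and *Gm27029* and *Gm7324* shared 85.3% and 79.4% of their 50-base stretches with other genes. Over all 62 genes, 34 shared no such stretch and 5 shared over 50%.

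At the edges of the selection, *Gm12689*, *Apom* and *Gm3604* had the highest control means inside it (0.991, 0.942 and 0.871 CPM), and *Spem1*, *Gm19426* and *Lrrc32* the lowest outside it (1.02, 1.08 and 1.09 CPM). *Tbxa2r*, *Tgm5* and *Kmo* missed the mutant floor at 0.50, 0.482 and 0.474 CPM, where *Edar*, *Tdo2* and *Heatr4* passed it at 0.514, 0.529 and 0.533 CPM. *BC035044*, *Stra6l* and *Colec12* had ratios of 1.99, 1.97 and 1.95, against 2.01, 2.05 and 2.11 for *Cort*, *Cdc42ep5* and *Gm3604*. In *Sftpb*, *Batf3* and *Vmn2r57* the lowest mutant exceeded the highest control by 0.00231, 0.00396 and 0.0160 CPM, and in *Ntf3*, *Gtf2a1l* and *Adgre4* it fell short by less than 0.04 CPM.

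Genes next to the 62 had no part in the selection and could be tested. In edgeR's quasi-likelihood test over 17998 genes with Benjamini-Hochberg adjustment, 6.49% of all genes passed the threshold of 0.05 with higher levels in the mutant and 4.05% with lower levels. Of 158 tested genes within 50 kb of one of the 62 and not overlapping it, 24 were upregulated (15.2%) and 1 was downregulated (0.633%), and their median log2 fold change was 0.02. Within 10 kb, 13 of 49 were upregulated (26.5%) and 0 downregulated (2 at an unadjusted p under 0.05, and 0 with DESeq2), and within 200 kb 52 of 452 were upregulated and 13 downregulated. For the genes outside the chromosome 4 cluster, a restriction chosen after seeing the data, 19 of 149 neighbours were upregulated (12.8%). Without *Mettl3*-CKO replicate 1, the upregulated neighbours numbered 15, where 509 genes in all were called higher against 1168 with every sample. A neighbour called higher lay beside 19 of the 52 genes with a tested neighbour within 50 kb.

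*Lcmt2*, on the same strand and 18.5 kb upstream of *Tgm7*, was at 46.4, 28.2, 29.7 and 28.5 CPM in the mutant and at 11.5, 13.5, 15.3 and 16 CPM in controls (log2 fold change 1.23, standard error 0.16, adjusted p = 9.83e-04 by edgeR). The small nuclear RNA gene *Gm23858*, which lies within *Lcmt2*, went from 0.0285 to 0.983 CPM. Mutant replicate 1 was highest in *Lcmt2*, *Gm23858* and *Tgm7* alike, as it was among the mutant samples in 43 of the 62 genes (69.4%). *Riox1*, a ribosomal oxygenase gene 1.5 kb from *Heatr4* on the opposite strand, rose from 7.40 to 16 CPM (log2 fold change 1.11, standard error 0.13, adjusted p = 4.51e-04 by edgeR). *Zfp300*, another zinc finger gene, 1.2 kb from *Spaca5* on the opposite strand, rose from 2.65 to 7.08 CPM (1.41, standard error 0.18, adjusted p = 7.26e-04 by edgeR). *Tnnt2*, the cardiac troponin T gene 3.0 kb downstream of *Lad1*, rose from 0.984 to 3.11 CPM (1.65, standard error 0.37, adjusted p = 0.0151 by edgeR). *Phlda3*, a p53 target 49.5 kb from *Lad1*, and *Timm8a1*, 0.5 kb from *Btk*, rose by 1.36 and 0.89 on the same log2 scale. By orientation to the nearest of the 62 genes, 12 of 51 same-strand upstream neighbours were upregulated, 3 of 37 same-strand downstream, 6 of 40 opposite-strand downstream and 3 of 30 opposite-strand upstream. Those 12 include *Zfp992*, *Gm13241*, *Gm13147*, *Znf41-ps* and *Gm13238* of the chromosome 4 cluster, and *Lcmt2* with *Gm23858* inside it. Several of these calls thus come from the same loci and are not separate cases. Of the 7 tested genes that overlap one of the 62, edgeR called 0, with 0 at an unadjusted p under 0.05 and 0 with DESeq2. Whether counting used strand is not stated, so overlapping genes can share reads, and whether a neighbour and one of the 62 genes share transcripts was not tested.

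**Figure D5:**
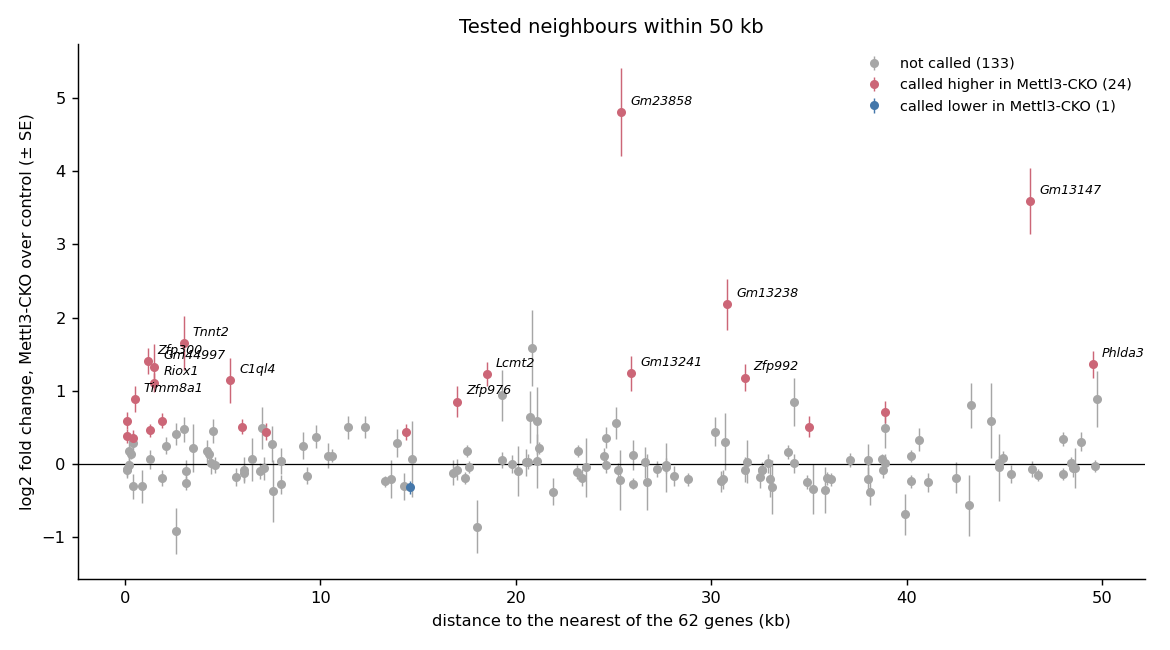
Log2 fold change (*Mettl3*-CKO over control, with its standard error) of the 158 tested genes within 50 kb of one of the 62 genes against the distance to the nearest of them in kb. Red points are the 24 called higher and the blue point the 1 called lower, and 13 of the red points lie within 10 kb.

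Other genes of pathways to which such low genes could belong were read from lists, leaving out the 62. These lists were chosen with earlier results of these data known, so the calls in them are a description. Over all 17998 genes tested, edgeR called 6.49% higher and 4.05% lower in the mutant. Of 28 tested p53 targets, 13 were upregulated and 0 downregulated (4 lower at an unadjusted p under 0.05, and 3 lower with DESeq2). *Cdkn1a*, the cell cycle inhibitor, had a log2 fold change of 1.33, *Ddit4l*, a stress-induced inhibitor of mTOR signalling, of 2.19, the receptor *Eda2r* of 2.06 and *Phlda3*, an inhibitor of AKT, of 1.36 (adjusted p at most 0.00103 for these 4 by edgeR). None of the 62 genes is in that list. Of 16 cell cycle genes, 7 were upregulated and 0 downregulated by edgeR (0 lower at an unadjusted p under 0.05, and 0 with DESeq2), with *Mki67* at 0.98, *Birc5* at 0.62, *Rrm2* at 0.52 and *Aurka* at 0.56 on the log2 scale.

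*Boll* is the single gene of the germline list among the 62. Of 18 others tested, edgeR called 0 higher, also 0 at an unadjusted p under 0.05 and 0 with DESeq2, and 2 were lower, the meiotic histone methyltransferase *Prdm9* (-0.82) and the meiotic cohesin subunit *Stag3* (-0.40). Of 19 early embryo genes present in the table, 13 had no count in any sample, among them *Zscan4c*, *Zscan4d*, *Zscan4f*, *Nanog* and *Zfp42*. The single one that could be tested was not called by edgeR (0 at an unadjusted p under 0.05, and 0 with DESeq2). Among 22 integrated stress response genes, 2 were higher, the serine synthesis enzyme *Psat1* (0.47) and *Sesn2* (0.72), which is also a p53 target. Among 14 interferon response genes, *Ifit2* was higher (0.46) and the RNA sensor *Ifih1* lower (-1.11). The few calls in the stress response and interferon lists lie near the shares over all genes tested, 6.49% higher and 4.05% lower.

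Markers of other cell types were summed in each sample. The 10 retina-defining genes summed to 3922 to 4566 CPM in the mutant and 4784 to 5324 CPM in controls. Lens genes, at 10.9 to 29.3 CPM in the mutant, reached 5124 CPM in control replicate 4 and 94.1 CPM in control replicate 1, against 8.69 and 14.7 CPM in the other two, and without control replicate 4 the selection held 59 of the 62 genes. Sums were lower in every mutant sample for erythrocyte genes (4.40 to 7.59 against 14.3 to 26.6 CPM), retinal pigment epithelium and melanocyte genes (80.2 to 104 against 105 to 140 CPM) and muscle and connective tissue genes (49.9 to 70.3 against 86.1 to 157 CPM). They overlapped between the groups for endothelial genes (550 to 657 against 593 to 675 CPM, but with a median log2 fold change of -1.32 over 14 tested genes), microglia genes (106 to 151 against 61.2 to 183 CPM) and astrocyte genes (253 to 325 against 321 to 523 CPM). The sum over ciliary body and iris genes, the list that holds *Wfdc1*, was higher in the mutant (144 to 184 against 114 to 136 CPM), with a median log2 fold change of 0.05 over the 6 other genes tested, as was that over cell cycle genes (2369 to 3117 against 1700 to 2238 CPM). No sum of a list was examined as the source of the 62 genes, and their part in the result was not tested.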

How the data were processed

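Bulk RNA-seq libraries of 4 control and 4 *Mettl3*-CKO retinal samples were analysed. Per the methods and the labels, the authors used the NEBNext Ultra kit, mapped reads to GRCm38 with HISAT2 and counted reads per gene with featureCounts, and the deposited values are raw counts. The annotation release and the strand setting are not given in the sources used here. All 62 genes matched GENCODE vM21 by identifier, coordinates and strand.

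CPM was the count divided by the sample total, and FPKM also used the deposited gene length. The members, lists, groups by role and motifs were chosen with earlier results of these data known. Genes were named by level, ratio, family, position, list and threshold. Other genes were tested with edgeR 4.0.16 in R 4.3.3 (filterByExpr by group, TMM, quasi-likelihood test, Benjamini-Hochberg, threshold 0.05), which kept 46 of the 62, and DESeq2 1.42.0 was an alternative. The methods speak of biological replicates in general but do not give the pups behind each sequenced sample, so p-values measure the spread between these samples. Intervals are exact (Clopper-Pearson) and cover counting error only. The replicate numbers, shared by both groups, were not taken as pairs in the main test. Correlations of deviations were between -0.11 and 0.25 for same-numbered samples and between -0.23 and 0.26 for the others. Whether the numbers pair the samples was thus not settled. Promoters came from RefSeq (GRCm38.p6), and shared stretches from GENCODE vM21 transcripts. The test was checked on simulated counts. One of the 62 genes is not reported here by name.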

Additional observations from a re-analysis of the deposited data

Results flagged for a closer look

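Of 124 sets of 4 values (61 of the 62 genes, and the sum of all 62, in each group), 11 had one sample far from the other 3, relative to their range, where chance gives about 6.20 (5% of sets), so a single entry carries little weight. *Mettl3*-CKO replicate 1 stood apart on the high side in 5 of them: *Ppp1r3g*, a glycogen-targeting phosphatase subunit, at 1.84 CPM against 0.838 to 0.983, the nuclear receptor *Nr0b1* at 1.28 against 0.838 to 0.868, the kinase *Btk* at 1.06 against 0.632 to 0.694, *Olfr57* at 1.28 against 0.474 to 0.521, and *Edar* at 1.0 against 0.289 to 0.394. *Mettl3*-CKO replicate 3 was low for *Spink8*, a protease inhibitor gene, at 1.26 CPM against 2.07 to 2.23. Among controls, replicate 1 was low for *Lad1* (0.311 CPM against 0.785 to 0.863), and replicate 4 was high for *Nr0b1* (0.547 against 0.308 to 0.314). The remaining 3 entries are single counts beside controls at 0: 0.0616 CPM for *Zfp990* and for *Olfr1318* in control replicate 2, and 0.0608 CPM for *Zfp986* in control replicate 4.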

How the results depend on the processing

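The selection held 61 genes with TMM scaling (without *Cort*) and 60 with DESeq2 size factors (also without *Gm3604*). It held 38 at a mutant mean of at least 1 CPM, 22 at a ratio of at least 4 and 127 over all biotypes, and 57 to 87 when one sample was left out, 53 to 61 of them shared with the 62. Over the whole table edgeR called 1168 genes higher and 729 lower, and leaving out one sample gave 509 to 1882 higher and 185 to 1289 lower, the least without mutant replicate 1 and the most without control replicate 1. Leaving out one sample, calls ran from 8 to 13 higher and 0 to 1 lower for p53 targets, 1 to 2 lower for germline genes, 0 to 1 higher and 0 to 2 lower for interferon genes, 2 to 9 higher for cell cycle genes, and 15 to 33 higher and 0 to 6 lower for neighbours within 50 kb. p53 targets called lower numbered 3 with DESeq2 and 1 without the filter on low counts, and interferon genes 3 without that filter. Neighbours called lower numbered 2 with DESeq2, with DESeq2 size factors, with total count scaling and without the filter. They were 0 within 10 kb and 13 within 200 kb, where 13 and 52 were higher. With the replicate number as a block, 1198 genes were higher and 660 lower, interferon genes and neighbours called lower fell to 0, and the other counts of calls moved by less than 1.5 times. The causes were not tested.

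For single genes, 614 ratios recomputed with another scaling or without one sample moved by less than the spread between replicates, 3 moved by more and 0 reversed. Those 3 were *Fabp6* and *Zfp988* without control replicate 2 (log2 ratios of 5.02 and 4.43) and *Gm29776* without control replicate 4 (4.40). *Gm14124*, *Sftpb*, *Tgm7*, *Heatr4* and *1300017J02Rik* also moved by over 1.5 times without one control, in each case to a higher ratio, and *Fabp6* had a ratio of 6.15 without *Mettl3*-CKO replicate 1. For *Zfp990*, *Zfp986* and *Olfr1318*, no ratio could be formed without the 1 control that held a count. At low counts, counting error limits the ratios of single genes.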

Other observations

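The same selection over all rows of the table added 65 genes that are not protein-coding, among them 19 processed pseudogenes, 14 long intergenic noncoding RNAs and 6 antisense genes.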
